A study of Homo sapiens with 6 samples.

Results

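The genes described here are 10 enzymes of peroxide, thiol, quinone and carbonyl detoxification: GPX1, GPX4, GSR, TXNRD1, GSTM3, MGST3, NQO1, HMOX1, AKR1C1 and AKR1C3. They were picked by symbol, with earlier results of these arrays known, and every transcript cluster carrying only that symbol was taken, 12 of the table's 33297. A transcript cluster is the set of probes assigned to 1 locus. GPX1 and AKR1C1 have 2 clusters each, and the leading cluster was chosen by the highest mean over all 6 arrays. All 10 genes were measured, among 18417 genes with a single symbol.

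The arrays compared MDA-MB-231 cells, an established triple-negative human breast cancer line with mesenchymal features, after 24 h in 1 µM selamectin with control cells. Selamectin is a veterinary antiparasitic of the avermectin family, and the series concerns its use as an inhibitor of the SIN3 corepressor. There were 3 arrays per group, from cultures that the submitters describe as independent. The control arrays are titled untreated, whereas the treatment description names a vehicle. All values are on the deposited scale, taken here as log2, and levels of different genes are not compared because probes differ in brightness. In a bulk array, fewer cells of a type and less RNA per cell cannot be told apart.

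NRF2, encoded by NFE2L2, is a transcription factor held at low levels by KEAP1, which presents it for degradation. Oxidants and electrophiles modify KEAP1, NRF2 accumulates, and with small MAF proteins it binds antioxidant response elements near genes for glutathione and thioredoxin metabolism. BACH1 represses some of the same genes, HMOX1 above all, until heme releases it. GPX1, GPX4 and TXNRD1 are also selenoproteins, whose synthesis needs selenocysteine at a recoded stop codon and therefore depends on selenium supply.

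Arrays had medians between 7.47 and 7.51. In a principal component analysis the groups separated on component 1 (45.8% of the variance), and selamectin array 3 lay away from the rest on component 2 (20.8%). On untreated arrays, 8 genes usually high in this line had mean values from 7.64 (SPARC) to 12.67 (VIM), and 8 luminal and epithelial genes usually low in it from 5.60 (PGR) to 9.76 (FOXA1). These ranges overlap, and since probes differ in brightness they are only a rough check of the line. None of the measured markers of fibroblasts (7), leukocytes (5) or endothelium (5) passed the limma test described below. At an unadjusted p under 0.05 there were 1 of 7, 0 of 5 and 2 of 5. The fibroblast marker was DCN, higher by a log2 change of 0.17. The endothelial markers were CDH5, lower at -0.59 (interval -0.95 to -0.23, limma adjusted p = 0.067), and VWF, higher at 0.18. Of all genes, 11.7% were higher and 8.21% lower at that unadjusted threshold. The mean level of the fibroblast list spanned 6.55 to 6.64 on untreated and 6.62 to 6.68 on selamectin arrays, that of the leukocyte list 6.53 to 6.70 and 6.61 to 6.70, and that of the endothelial list 6.34 to 6.46 and 6.29 to 6.46. These arrays give no detection calls, so which markers are absent was not tested.

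Promoter windows reach from 250 bases before to 50 after a gene start and come from RefSeq on GRCh38.p14. They were found for 8 of the 10 genes; GSR and HMOX1 had no entry. The core letters of the antioxidant response element, TGACNNNGC, were searched on both strands. They occur in 13.3% of all 35116 windows of this length. Among the members they occur only in TXNRD1, in 2 of the 12 member windows, of which TXNRD1 has a pair. The matches that lie wholly upstream of a TXNRD1 start are shown because this gene fell with selamectin. Capitals mark the core. Its leftmost base on the plus strand lies 99 bases before the upstream start and 102 bases before the downstream start. At the downstream start the core reads on the opposite strand.

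TXNRD1 upstream start, chr12:104215670-104215698, plus strand: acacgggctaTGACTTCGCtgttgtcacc

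TXNRD1 downstream start, chr12:104286920-104286948, plus strand: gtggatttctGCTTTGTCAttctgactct

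Another match in TXNRD1 overlaps the upstream start itself. A match is a description of the letters and not a binding site. Sequence outside these windows was not searched, so a window without a match does not show that a gene lacks the element.

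The aldo-keto reductase genes lie close together on chromosome 10. Their promoters are shown because the leading clusters of AKR1C1, AKR1C2 and AKR1C3 had the same order on the selamectin arrays. The dimmer AKR1C1 cluster had another order. Probes can be shared within this family, and whether the likeness of promoters bears on the order was not tested. Over the whole windows, AKR1C1 and AKR1C2 are identical at 288 aligned bases and differ at 4, which is 98.6% of aligned bases. Each AKR1C3 start is less alike, at 78% and 79.5%. These percentages leave out gapped positions, 16 for AKR1C2 and 18 and 34 for the upstream and downstream AKR1C3 starts. The stretch from 120 to 21 bases before the AKR1C1 start is the same in AKR1C2 at all 100 bases. The aligned stretches of AKR1C3 follow, with capitals at bases that differ from AKR1C1 or have no counterpart there.

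AKR1C1, chr10:4963295-4963394, plus strand, and AKR1C2, chr10:5003882-5003981, minus strand: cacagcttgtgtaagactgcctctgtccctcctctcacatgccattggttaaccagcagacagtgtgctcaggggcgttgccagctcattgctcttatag

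AKR1C3 upstream start, chr10:5048665-5048761, plus strand: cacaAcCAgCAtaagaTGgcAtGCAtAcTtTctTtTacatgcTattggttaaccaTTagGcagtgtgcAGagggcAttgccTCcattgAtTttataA

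AKR1C3 downstream start, chr10:5094285-5094392, plus strand: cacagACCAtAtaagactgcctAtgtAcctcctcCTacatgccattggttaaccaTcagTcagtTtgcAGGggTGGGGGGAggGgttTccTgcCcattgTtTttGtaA

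With selamectin, GPX1 rose and GSTM3 and TXNRD1 fell, while the other 7 genes did not pass the test. Passing means an adjusted p under 0.05 in limma, a linear model fitted to all 18417 genes with Benjamini-Hochberg adjustment over all of them. Of all genes tested, 2.41% rose and 2.28% fell by that rule. For 6 of the 10 genes every selamectin array lay below every untreated array, and for 2 (GPX1 and HMOX1) every selamectin array lay above. Among all genes, groups without overlap were seen for 9.30% as lower and for 16.0% as higher. Because the members were named with the results of this contrast known, nothing is read from these counts, and the p-values of single members are a description of these arrays.

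**Figure D1:**
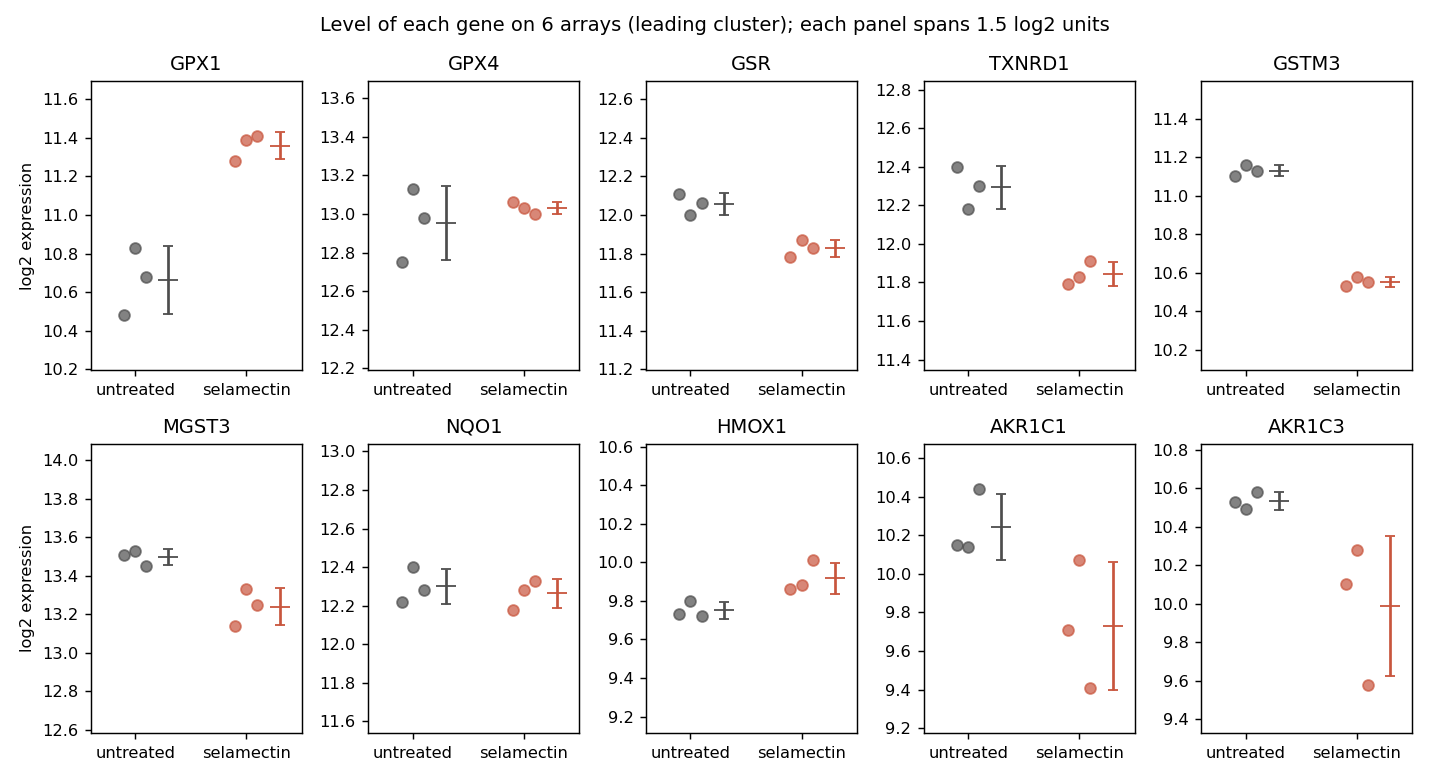
Log2 expression of the leading cluster of each gene (y axis, every panel spanning 1.5 log2 units) on the untreated and selamectin arrays (x axis); points are single arrays, with the mean and SD of 3 arrays beside them. GPX1 lies higher on every selamectin array, GSTM3 and TXNRD1 lie lower, and AKR1C1 and AKR1C3 are spread widely within the selamectin group.

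GPX1, the cytosolic glutathione peroxidase that reduces hydrogen peroxide, read 10.48, 10.83 and 10.68 on untreated arrays 1 to 3 and 11.28, 11.39 and 11.41 on selamectin arrays 1 to 3. Every treated array lay above every untreated one, with a gap of 0.45 log2 units between the groups. The gene rose 1.62-fold, a log2 change of 0.70 ± 0.10 SE (95% interval 0.47 to 0.92, limma adjusted p = 0.0054).

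The dimmer GPX1 cluster, annotated with a different transcript of the gene, gave a smaller difference. It read 10.12, 10.10 and 10.02 untreated and 10.13, 10.23 and 10.35 with selamectin, and the groups were separated by only 0.01. Its log2 change was 0.16 (interval -0.05 to 0.36), with a limma adjusted p of 0.38 over all clusters with 1 symbol. The average of both clusters changed by 0.43 (limma adjusted p = 0.024), so the size of the rise depends on which probes are read.

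GPX4, the peroxidase that reduces lipid hydroperoxides in membranes and restrains ferroptosis, overlapped between groups. Its untreated values were 12.75, 13.13 and 12.98 and its selamectin values 13.06, 13.03 and 13.00, all inside the untreated range. The log2 change was 0.07, with an interval from -0.13 to 0.28 (limma adjusted p = 0.69). Untreated array 1 held the lowest value, and the change was -0.03 without it.

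TXNRD1, the cytosolic thioredoxin reductase that uses NADPH to keep thioredoxin reduced, was lower on every selamectin array. The untreated arrays read 12.40, 12.18 and 12.30 and the selamectin arrays 11.79, 11.83 and 11.91. It fell 1.37-fold, a log2 change of -0.45 ± 0.08 SE (interval -0.63 to -0.27, limma adjusted p = 0.013). The call was lost without untreated array 1 (0.063), untreated array 3 (0.068) or selamectin array 2 (0.059), and when all 33297 clusters were fitted (0.065). The log2 change stayed between -0.51 and -0.40 over all settings.

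GSR, the glutathione reductase that returns oxidised glutathione to its reduced form, showed a smaller separation in the same direction. It read 12.113, 11.996 and 12.061 untreated and 11.779, 11.871 and 11.827 with selamectin, with no overlap. The log2 change was -0.23 (interval -0.39 to -0.07) and did not pass (limma adjusted p = 0.11).

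**Figure D2:**
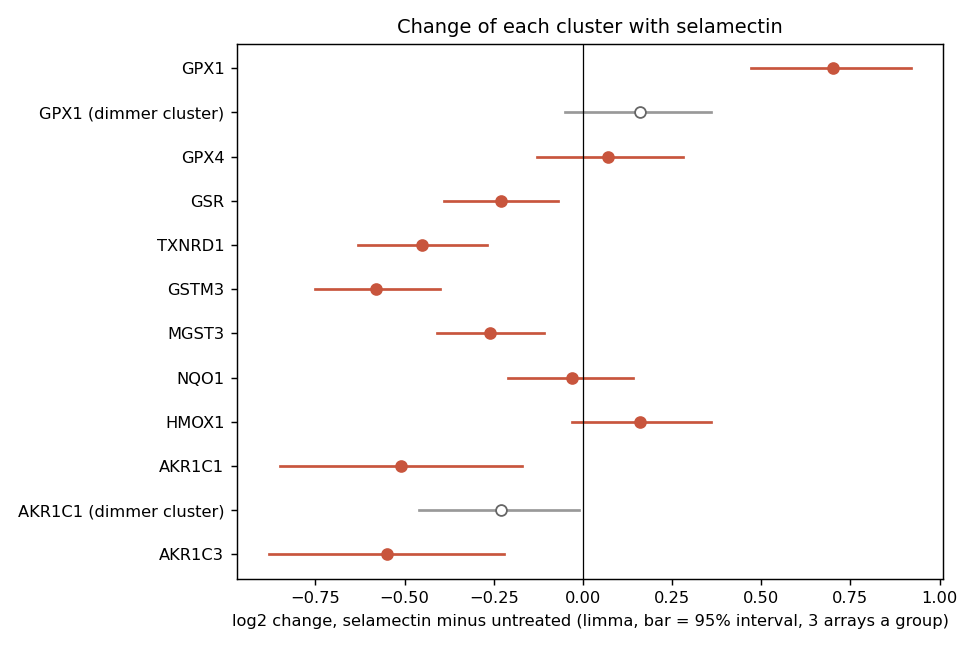
Log2 change with selamectin (x axis) for each of the 12 clusters (y axis), with bars for the 95% interval of the limma fit on 3 arrays per group; grey open points are the dimmer clusters of GPX1 and AKR1C1. The intervals of GPX4, HMOX1, NQO1 and the dimmer GPX1 cluster include 0.

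GSTM3, a mu class glutathione transferase that conjugates glutathione to electrophiles, was lower by a similar amount on every selamectin array, with an SD of 0.03 in each group. The untreated arrays read 11.10, 11.16 and 11.13 and the selamectin arrays 10.53, 10.58 and 10.55, leaving a gap of 0.52. It fell 1.49-fold, a log2 change of -0.58 ± 0.08 SE (interval -0.75 to -0.40, limma adjusted p = 0.0047). Leaving out any one of the 6 arrays kept the call, with limma adjusted p from 0.0032 to 0.03.

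The other mu class genes did not pass. GSTM4 changed by -0.20 (interval -0.40 to 0.01, limma adjusted p = 0.26) and GSTM2 and GSTM5 by -0.11 each. GSTM1 stood at 11.14 in both groups (interval of the change -0.19 to 0.19). GSTM2, GSTM1 and GSTM5 lie outside the naming rule and were chosen, as family members, after their values were seen. Probes of this family can be shared between genes.

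MGST3, a membrane-bound glutathione transferase and peroxidase, read 13.51, 13.53 and 13.45 untreated and 13.14, 13.33 and 13.25 with selamectin. The groups did not overlap, and the gap was 0.11. Its log2 change was -0.26 (interval -0.41 to -0.11, limma adjusted p = 0.058), so it did not pass. It passed when dim genes were left out of the fit (0.043 and 0.035 for the 2 filters).

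NQO1, the quinone reductase often read as a reporter of NRF2 activity, gave overlapping groups. Its values were 12.22, 12.40 and 12.28 untreated and 12.18, 12.28 and 12.33 with selamectin. The log2 change was -0.03 with an interval from -0.21 to 0.14 (limma adjusted p = 0.84), and it was 0.01 without untreated array 2 or without selamectin array 1.

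HMOX1, the inducible heme oxygenase, read 9.73, 9.80 and 9.72 untreated and 9.86, 9.88 and 10.01 with selamectin. All selamectin arrays were higher, by a gap of 0.06. The log2 change of 0.16 (interval -0.03 to 0.36) did not pass (limma adjusted p = 0.34).

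AKR1C1 and AKR1C3 are aldo-keto reductases that reduce steroid ketones and lipid aldehydes; AKR1C3 also makes testosterone and certain prostaglandins. They were lower on all selamectin arrays, and they varied most among these arrays. The leading cluster of AKR1C1 read 10.15, 10.14 and 10.44 untreated and 9.71, 10.07 and 9.41 with selamectin, a log2 change of -0.51 ± 0.15 SE (interval -0.85 to -0.17, limma adjusted p = 0.087). Its dimmer cluster, at 7.98, 7.91 and 8.00 against 7.59, 7.90 and 7.69, changed by -0.23 (interval -0.46 to -0.01), with a limma adjusted p of 0.23 over all clusters with 1 symbol.

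AKR1C3 read 10.53, 10.49 and 10.58 untreated and 10.10, 10.28 and 9.58 with selamectin. Its log2 change was -0.55 ± 0.15 SE (interval -0.88 to -0.22, limma adjusted p = 0.063). The SD was 0.05 untreated and 0.36 with selamectin.

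AKR1C2, which is no member and whose coding sequence is close to that of AKR1C1, read 10.11, 9.92 and 10.42 untreated and 9.68, 10.09 and 9.07 with selamectin. Here the groups overlapped through selamectin array 2. Its log2 change was -0.54 (interval -1.01 to -0.07, limma adjusted p = 0.19).

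Relative to its own untreated mean, the leading cluster of each of these 3 genes was lowest on selamectin array 3, at -0.83, -0.95 and -1.08 for AKR1C1, AKR1C3 and AKR1C2, and least changed on selamectin array 2, at -0.17, -0.26 and -0.06. The dimmer AKR1C1 cluster differed in order, at -0.37, -0.06 and -0.27 on selamectin arrays 1 to 3, and was lowest on array 1. Each gene was also highest among untreated arrays on array 3. GSTM3 lay between -0.60 and -0.55 on the same selamectin arrays. Without selamectin array 3, the log2 change was -0.35 for AKR1C1 (limma adjusted p = 0.138) and -0.35 for AKR1C3 (0.0497). Without selamectin array 2, AKR1C1 was at -0.68 and passed (0.044). Probes can be shared within the AKR1C family, and how far these clusters read the same transcripts was not tested.

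**Figure D3:**
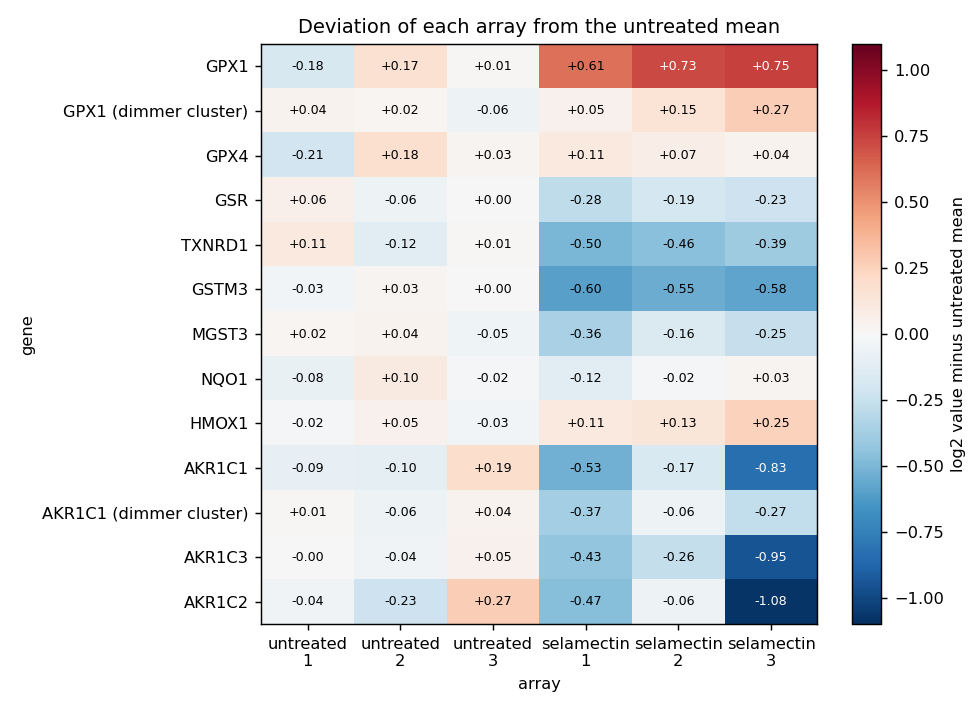
Log2 value of each cluster minus its untreated mean (colour and printed number, red higher and blue lower) for each cluster (rows) on each of the 6 arrays (columns), with AKR1C2 added in the last row. GSTM3 is nearly even across the selamectin arrays, while the leading clusters of AKR1C1, AKR1C3 and AKR1C2 are lowest on selamectin array 3 and the dimmer AKR1C1 cluster on selamectin array 1.

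Genes around the members were taken from 12 lists of redox genes, with the members left out. Of 110 listed genes 100 were measured, and 5 rose and 5 fell, beside the 2.41% and 2.28% of all genes given above. An equal number of the 100 genes, 50, had a positive and a negative log2 change. The counts changed with the array left out. Without untreated array 1 no list gene rose or fell in limma. Without untreated array 3 there was 1 in each direction, and without selamectin array 2 there were 1 and 2. Without untreated array 2 they were 2 and 3, and without selamectin array 1 they were 2 and 4. Without selamectin array 3 they were 6 and 5. Calls over all genes, both directions together, changed as well, from 864 with all arrays. These numbered 176, 254 and 234 without untreated array 1, untreated array 3 and selamectin array 2. They were 664, 597 and 1149 without untreated array 2, selamectin array 1 and selamectin array 3. Of the list genes, 11 were higher and 12 lower at an unadjusted p under 0.05 in limma with all arrays, beside the 11.7% and 8.21% of all genes. These became 11 and 11 without untreated array 1 and 9 and 7 without untreated array 3, and with any other array left out they were 9 to 15 higher and 10 to 13 lower.

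The next list holds NRF2, its controllers and the related factor NFE2L1. Of 9 measured genes, 7 had a positive and 2 a negative change, with a median of 0.12 against 0.04 for all genes. Only NFE2L1 rose and none fell, so neither NRF2 nor a controller passed. At an unadjusted p under 0.05 in limma, 3 were higher and 0 lower, beside the 11.7% and 8.21% of all genes. The same shares apply to the unadjusted counts of the lists below. Counts past the adjusted threshold stand beside 2.41% higher and 2.28% lower of all genes. NFE2L1, the related factor NRF1 that drives proteasome genes, rose by 0.41 (limma adjusted p = 0.047), but kept the call in only 1 of the 6 fits that each left out an array. KEAP1 stood at 0.34 (0.071) and SQSTM1, the p62 receptor that sequesters KEAP1, at 0.32 (0.065). NFE2L2 itself changed by 0.13 (interval -0.05 to 0.31) and BACH1 by 0.12 (interval -0.14 to 0.38), and the groups overlapped for each.

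In cystine uptake and glutathione synthesis, 1 of 5 genes fell and none rose, the same as at an unadjusted p under 0.05 in limma, and the median was -0.12. SLC7A11, the cystine antiporter, read 11.96, 11.56 and 11.95 untreated and 11.10, 11.24 and 11.11 with selamectin, a fall of 1.60-fold (limma adjusted p = 0.0096). It lost the call without untreated array 1 (0.053). Its partner subunit SLC3A2 stood at -0.12 without passing (0.29).

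The other glutathione peroxidases gave no call in limma among 6, also at an unadjusted p under 0.05, and GPX7 and GPX2 stood at 0.12 and 0.08. In the thioredoxin and peroxiredoxin system 1 of 12 rose and none fell, with a median of 0.10; at an unadjusted p under 0.05 in limma 2 were higher and 1 lower. TXNL1, a thioredoxin-like protein of the proteasome, rose by 0.43 (limma adjusted p = 0.029) and kept its call in 1 of 6 fits with an array left out. TXN2, the mitochondrial thioredoxin, stood at 0.31 (0.062). TXN, the substrate of TXNRD1, changed by -0.10 (interval -0.32 to 0.12) with overlapping groups. Among 4 superoxide dismutases and catalase, none passed in limma and 1 had an unadjusted p under 0.05, CAT at -0.22 (adjusted p = 0.20), while SOD1 stood at 0.10.

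Of the 15 other glutathione transferases, 1 fell and none rose, the same as at an unadjusted p under 0.05 in limma, and 11 had a negative change (median -0.08). GSTA4, which conjugates the lipid peroxidation product 4-hydroxynonenal, read 8.05, 7.76 and 8.14 untreated and 7.64, 7.49 and 7.07 with selamectin, a change of -0.58 (limma adjusted p = 0.049). That call was kept in 2 of 6 fits with an array left out. The other 7 aldo-keto reductases held no call in limma; AKR1C2, given above, was the only one with an unadjusted p under 0.05, and AKR1C4 stood at -0.16.

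Among 8 quinone, carbonyl and aldehyde enzymes none passed in limma and 1 had an unadjusted p under 0.05, the epoxide hydrolase EPHX1 at -0.30 (adjusted p = 0.11); PTGR1 stood at -0.28 with overlapping groups. Among 6 heme and iron genes none passed, with 0 at an unadjusted p under 0.05 in limma; the biliverdin reductases BLVRA and BLVRB stood at -0.25 and -0.18. Of 6 NADPH-supplying enzymes 1 fell, the mitochondrial isocitrate dehydrogenase IDH2, from 10.53 ± 0.11 to 9.91 ± 0.37 (SD, n = 3; limma adjusted p = 0.048). Its lowest array was selamectin array 3 at 9.48, and it kept its call in 2 of 6 fits with an array left out. TKT, a transketolase of the pentose phosphate pathway, stood at -0.20 (0.13).

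**Figure D4:**
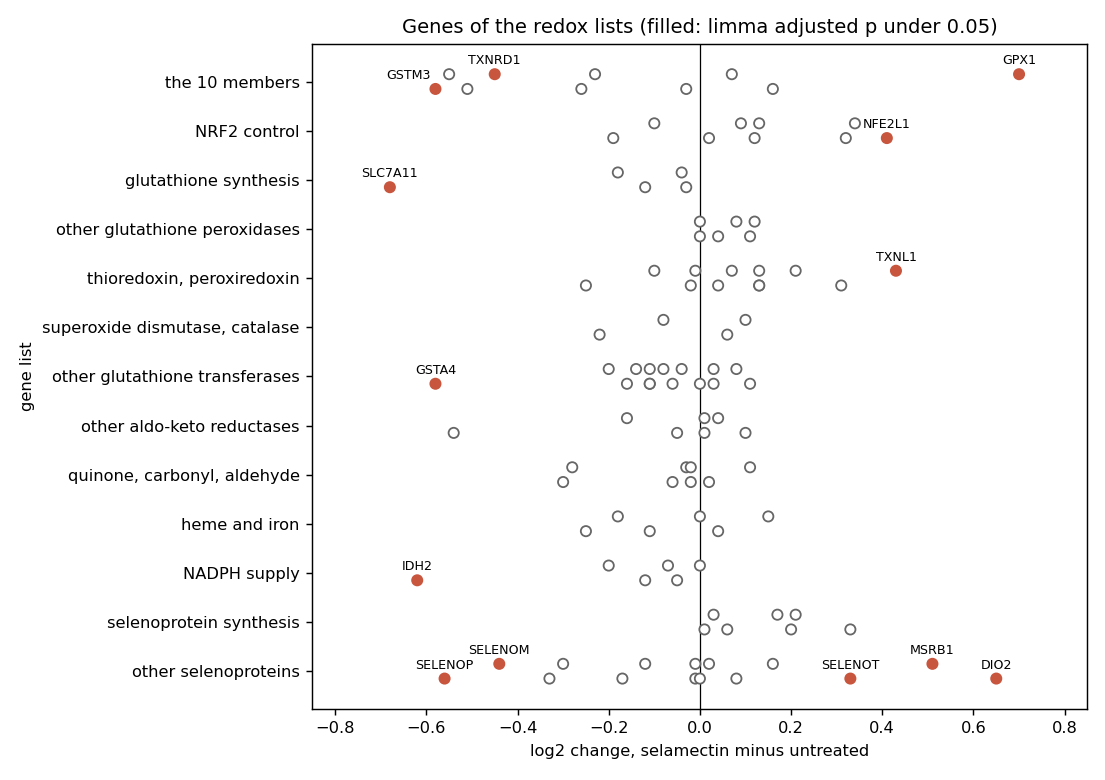
Log2 change with selamectin (x axis) of each measured gene in the 12 redox lists and of the members' leading clusters (y axis, 1 line per list); filled and named points passed an adjusted p of 0.05 in limma. Most open points lie near 0, and the named points fall on either side of it.

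Selenoproteins moved in both directions. Outside the members, 15 were measured, 3 rose and 2 fell, beside the 2.41% and 2.28% of all genes, and the median was -0.01. At an unadjusted p under 0.05 in limma, 4 were higher and 4 lower, beside the 11.7% and 8.21% of all genes. DIO2, the deiodinase that activates thyroid hormone, rose by 0.65 (limma adjusted p = 0.011), MSRB1, a methionine sulfoxide reductase, by 0.51 (0.024), and SELENOT, an endoplasmic reticulum protein, by 0.33 (0.025). SELENOP, the secreted selenium carrier, fell by 0.56 (limma adjusted p = 0.016) and SELENOM, an endoplasmic reticulum protein, by 0.44 (0.020). DIO2, from 6.81 ± 0.12 to 7.45 ± 0.20, and SELENOP, from 6.54 ± 0.13 to 5.98 ± 0.20 (SD, n = 3), had group means below the array medians. With an array left out, DIO2 kept its call in 5 of 6 fits, SELENOP in 4, MSRB1 in 3, and SELENOT and SELENOM in 1 each. Set beside these are the 3 selenoprotein members, of which GPX1 rose, TXNRD1 fell and GPX4 did not pass.

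Of 7 genes that make selenoproteins, all had a positive change, with a median of 0.17 against 0.04 for all genes. The share of all genes with a positive change was not determined, so nothing is read from these signs. None of the 7 reached the adjusted threshold. By unadjusted limma p-values below 0.05, 2 were higher and 0 lower, beside the 11.7% and 8.21% of all genes. SEPHS2, which makes selenophosphate, read 10.00, 10.20 and 10.19 untreated and 10.48, 10.53 and 10.35 with selamectin, a change of 0.33 (limma adjusted p = 0.077). PSTK, the kinase that prepares the selenocysteine tRNA, stood at 0.20 (0.19).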

How the data were processed

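The authors deposited 1 value per transcript cluster and array, taken here as log2 expression; the log base is not stated. Expression Console, RMA and Transcriptome Analysis Console are named per the submitters' processing notes, with no version. RMA as commonly run equalises array distributions, which removes a shift of all genes. Changes of dim genes can also be compressed in such values. The build of the genome was not given in the sources used here. Symbols came from the platform annotation (19460 clusters with 1 symbol, 1754 with several, 12083 without an entry); list genes that this leaves without a cluster of their own were not analysed here.

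Titles gave the groups. All 18417 genes, each by its cluster of highest mean, were fitted with limma 3.58.1 in R 4.3.3 (lmFit, eBayes with trend, two-sided, no block, Benjamini-Hochberg). The fit was tested on simulated data. The number of arrays limits the precision: the median SE was 0.094. Scan dates were not used here and no batch was tested.

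Members and lists were chosen with earlier results of these data known. Named genes are the members, list genes past the threshold, the smallest p-values of each list, and 6 fixed partners. Same-numbered arrays had correlations of deviations of -0.0113, 0.242 and -0.139, so the numbers were not treated as pairs. Alternatives were other scaling, dim-gene filters, eBayes settings, array weights, a replicate block, other features, thresholds, and each array left out.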

Additional observations from a re-analysis of the deposited data

How the results depend on the processing

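GPX1 was higher and GSTM3 lower past the threshold in all 19 alternative settings, with log2 changes of 0.43 to 0.78 and -0.60 to -0.56. For GPX1 this refers to the leading cluster, or to the mean of its clusters in the setting that averaged them. Its dimmer cluster did not pass in limma (adjusted p = 0.38 over clusters with 1 symbol and 0.45 over all clusters). Members called lower numbered 2. They were 3 with centred arrays, 3 with genes above the 25th percentile, 4 with genes above the median level and 6 with array weights. With all clusters and at a threshold of 0.01 there was 1, at 0.10 there were 5, and with an array left out 1 to 3. AKR1C3 passed in limma with centred arrays (adjusted p = 0.0497), above the median (0.0473) and with array weights (0.00978). GSR passed with array weights (0.0169). Members called higher stayed at 1. In the counts that follow, settings within a ratio of 1.5 of the main count are not listed one by one. Array weights lean on untreated array 3 (weight 5.11). All genes called numbered 864, against 3286 with array weights, 249 clusters with all clusters fitted, 173 at 0.01, 1602 at 0.10, and 176 to 1149 with an array left out. Redox list genes called higher (5) became 10 with array weights, 2 with the replicate block, 0 with all clusters, 0 at 0.01 and 9 at 0.10, and those lower (5) became 13 with array weights, 3 with the replicate block, 3 above the median, 3 without the eBayes trend, 3 with all clusters of 1 symbol, 0 with all clusters and 1 at 0.01; with an array left out they were 0 to 6 and 0 to 5. The replicate block changed no member's call (TXNRD1 adjusted p = 0.031 in limma). Whether same numbers mark paired cultures is not known here. With an array left out, the log2 change ran from -0.03 to 0.16 for GPX4, turning without untreated array 1, and from -0.07 to 0.01 for NQO1, turning without untreated array 2 or selamectin array 1. The cause was not tested, apart from the numbers of genes or arrays that a setting itself changes. How far signals stood above background is not known here.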
